A study of Mus musculus with 8 samples.

Results

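The 10 genes described here encode transcription factors that mark the primitive streak and the mesoderm that first leaves it. They are T, Eomes, Mixl1, Mesp1, Mesp2, Lhx1, Gsc, Evx1, Tbx6 and Msgn1, a named list that was matched by gene symbol to 10 of the 37620 genes counted. The counts came from RNA-seq of 8 mouse libraries in 5 groups. All but the sorted library came from R1, a line of mouse embryonic stem cells (mESCs), and all groups of stem cells were kept in medium with serum and without feeder cells. The 2i group (day 5) received CHIR99021, which inhibits GSK3, and PD0325901, which inhibits MEK. The 2iJ group (day 5) received 2i with a JAK inhibitor. The 2iJ+B-A group (days 2, 5 and 11) received 2iJ with BMP4 and ALK5 inhibitor II, which blocks Activin and Nodal receptors. The sorted Cdx2-GFP+ library held GFP-positive cells from the CDX2-GFP line after 2 days in those same additions. It differs from 2iJ+B-A in line and in sorting, and from its days 5 and 11 also in time. Mesoderm progenitors were made from R1 embryoid bodies given BMP4, Activin A and Wnt3a from day 2. They were taken on day 3, or on day 4 after a day with IWP-2, which blocks Wnt secretion, so both time and treatment separate these libraries.

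In the gastrulating embryo, Wnt and Nodal signals set up the primitive streak in the epiblast under the influence of BMP4, and cells pass through it to become mesoderm or endoderm. T and Eomes, both T-box factors, switch on early in these cells, Mesp1 marks mesoderm as it leaves the streak, and Tbx6 and Msgn1 act in its posterior, presomitic part. In cells that leave the streak, expression of much of this set is brief, and the cells then turn to the programmes of heart, vessel, blood or somite.

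The promoters of T, Mesp1 and Msgn1 are shown because, of the 9 members with an entry in the RefSeq promoter table (build GRCm38.p6, Mixl1 missing), they are the 3 whose 300-base window held CTTTGA, a core motif of the TCF/LEF factors through which Wnt signals act. The motif was sought on both strands and stood in 16.0% of 32544 mouse promoters of that length. The 250 bases before each start site are given 5′ to 3′ on the strand of the gene, with the motif or its reverse complement in capitals.
T: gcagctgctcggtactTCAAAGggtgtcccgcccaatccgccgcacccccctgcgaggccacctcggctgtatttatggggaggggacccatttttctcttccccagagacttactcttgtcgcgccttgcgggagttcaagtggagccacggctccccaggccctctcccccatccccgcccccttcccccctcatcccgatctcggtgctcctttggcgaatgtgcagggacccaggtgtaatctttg
Mesp1: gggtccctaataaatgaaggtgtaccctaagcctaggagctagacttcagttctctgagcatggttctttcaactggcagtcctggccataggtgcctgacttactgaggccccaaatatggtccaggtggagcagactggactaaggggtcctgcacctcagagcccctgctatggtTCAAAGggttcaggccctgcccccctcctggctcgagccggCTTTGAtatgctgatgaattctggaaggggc
Msgn1: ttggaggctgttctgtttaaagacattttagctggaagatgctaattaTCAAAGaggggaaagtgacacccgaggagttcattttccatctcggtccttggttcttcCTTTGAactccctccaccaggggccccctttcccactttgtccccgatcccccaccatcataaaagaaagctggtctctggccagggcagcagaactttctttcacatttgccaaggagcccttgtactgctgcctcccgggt
These stretches lie at chr17:8434173-8434422 on the plus strand for T, at chr7:79793591-79793840 on the minus strand for Mesp1 and at chr12:11208949-11209198 on the minus strand for Msgn1. The motif began 234 bases before the start of T, 72 and 31 bases before that of Mesp1, and 202 and 143 bases before that of Msgn1. A T-box motif, AGGTGT on either strand, was held by 4 of the 9 member promoters (T, Mesp1, Mesp2 and Evx1) against 13.8% of all promoters. The SMAD motif CAGAC was held by another set of 4 (Mesp1, Lhx1, Evx1 and Tbx6) against 49.5% of all promoters. Eomes and Gsc held none of the 3 motifs in this window. A match of letters is a description and not evidence of binding.

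Between 19810855 and 31453888 read pairs per library were counted on genes, which sets 3 counts at 0.095 to 0.151 counts-per-million (CPM), taken here as the floor. The sorted library stood apart: 29.7% of its pairs were unmapped, against 2.17% to 3.85% in the R1 libraries. The labels do not say that libraries of a group came from separate cultures, and each day counted as a sample of its group, so p-values measure the spread between these samples. The sample codes differ in their first letter between mesoderm progenitors, sorted cells and the unsorted mESCs, and a batch that followed these codes cannot be told apart from the groups. Mesoderm markers (Kdr, Pdgfra, Snai1, Foxf1 and Hand1) summed to 374 CPM on day 3 and 1125 CPM on day 4 of mesoderm, against 7.46 to 135 CPM in unsorted mESCs. Pluripotency markers (7 genes with Pou5f1 and Nanog) summed to 911 CPM on day 3 and 88.0 CPM on day 4, against 3110 to 4758 CPM in unsorted mESCs. Of the 10 members, 9 had at least 10 counts in at least 2 libraries and were tested. Msgn1 reached 10 counts in 1 library and was not tested. Mesp1 reached that count only in the 2 mesoderm libraries, so passing the filter already required it to differ.

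The factors reached a high level on day 3 of mesoderm and were far lower in the other libraries. All 10 members together took 1793 CPM on day 3, 64.5 CPM on day 4, 23.2 CPM in 2i and 18.4 CPM in 2iJ. They took 8.72, 13.4 and 13.5 CPM on days 2, 5 and 11 of 2iJ+B-A and 9.24 CPM in the sorted cells. In bulk RNA, fewer cells that express a gene and less RNA of it per cell cannot be told apart. The leading member changed with the culture: T held 30.53% of the summed counts on day 3, Eomes held 34.43% on day 4 and 81.9% in 2i, and Evx1 held 53.12% on day 11 of 2iJ+B-A. Per length of transcript, T ranked first on day 3 with 237 RPKM (CPM per kilobase of exon), followed by Mesp1 with 142, Eomes with 94.5, Mixl1 with 89.5, Evx1 with 67.2 and Lhx1 with 43.9 RPKM. Msgn1 with 23.8, Mesp2 with 18.4, Tbx6 with 18.1 and Gsc with 7.87 RPKM came last. Mesp2 and Tbx6 could not be ranked, since their 95% Wilson intervals, 17.4 to 19.5 and 17.1 to 19.3 RPKM, overlapped. The other neighbours had separate intervals, which cover counting error in a single library only. The annotated model of Msgn1 is a single exon of 567 bases, which affects its value per length.

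**Figure D1:**
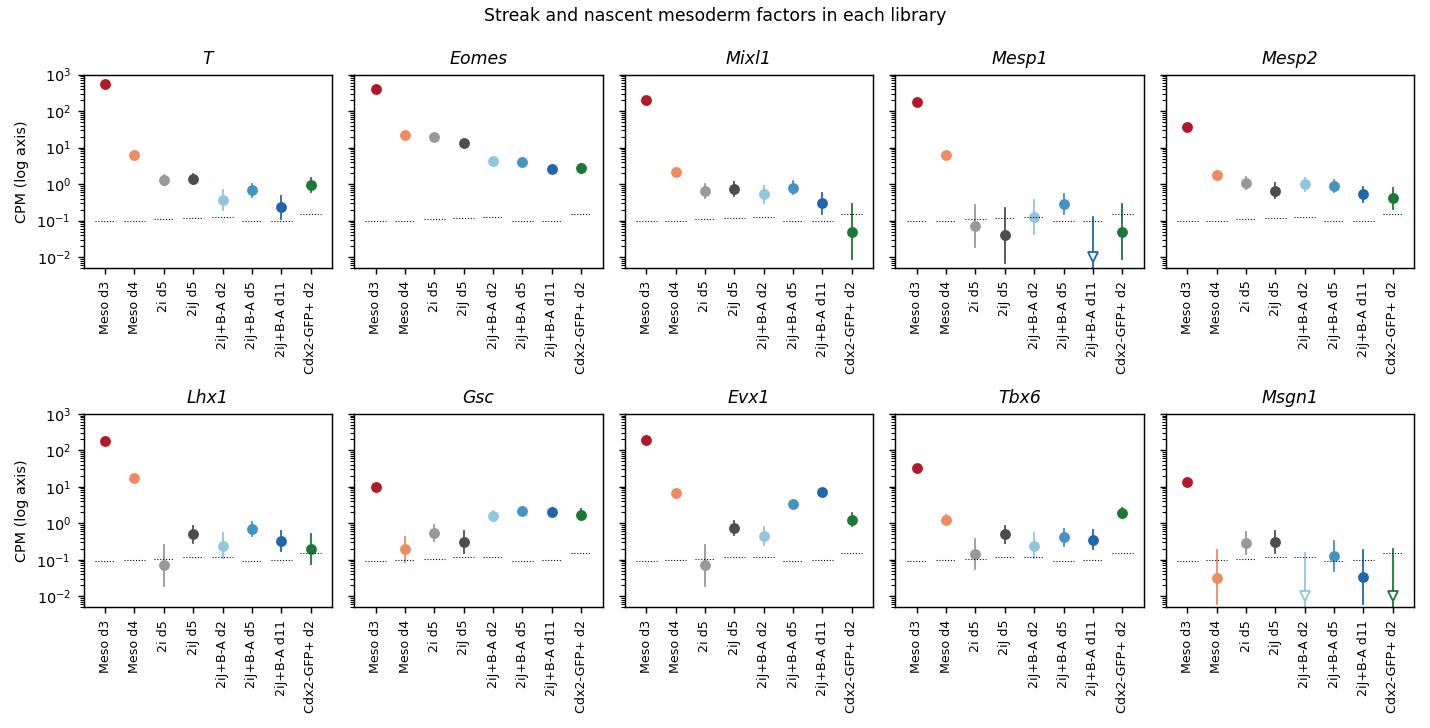
CPM of each of the 10 factors (log axis) in the 8 libraries, labelled by culture and day. Vertical lines are 95% Wilson intervals, dotted marks are the floor of 3 counts in that library, and open triangles drawn near the lower edge mark 0 counts. Every factor was highest on day 3 of mesoderm, from 9.95 CPM for Gsc to 547 CPM for T.

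Among the T-box factors, T (Brachyury, needed for posterior mesoderm and notochord) had 547 and 6.30 CPM on days 3 and 4 of mesoderm. T lies on the plus strand of chromosome 17 at 8627288 to 8635361 in NCBIM37, the build of the files. It had 1.31 CPM in 2i, 1.36 CPM in 2iJ, 0.367, 0.668 and 0.228 CPM on days 2, 5 and 11 of 2iJ+B-A, and 0.959 CPM in the sorted cells. Both mesoderm libraries were above every stem cell library, and the day 3 level was 86.9 times that of day 4. Eomes (needed for definitive endoderm and early mesoderm, and also expressed in trophoblast) had 393 and 22.2 CPM on days 3 and 4. Its levels were 19.0 CPM in 2i, 13.2 CPM in 2iJ, 4.16, 4.04 and 2.57 CPM in 2iJ+B-A by day, and 2.68 CPM in the sorted cells. Eomes was thus the factor with the highest stem cell level, and its day 4 level lay just above that of 2i, with Wilson intervals that met at 20.6 CPM (20.6 to 23.9 and 17.4 to 20.6 CPM). Eomes lies on the plus strand of chromosome 9 at 118387330 to 118395250. Tbx6 (chromosome 7, plus strand, 133924997 to 133929074), which directs cells to paraxial mesoderm in place of neural tissue, had 32.7 and 1.26 CPM on days 3 and 4. It had 0.142 CPM in 2i, 0.506 CPM in 2iJ, 0.245, 0.413 and 0.358 CPM in 2iJ+B-A by day, and 1.92 CPM in the sorted cells. The sorted library was the only stem cell library above the day 4 mesoderm for this gene, and their intervals, 1.40 to 2.63 and 0.922 to 1.72 CPM, overlapped.

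Of the homeobox factors, Mixl1 (chromosome 1, minus strand, 182623174 to 182627165), a Nodal-responsive factor of mesoderm and endoderm precursors, had 205 and 2.10 CPM on days 3 and 4. Its stem cell levels were 0.639 CPM in 2i, 0.739 CPM in 2iJ, 0.530, 0.795 and 0.293 CPM in 2iJ+B-A by day, and 0.050 CPM (1 count) in the sorted cells. It retained 1.02% of its day 3 level on day 4, compared with 9.62% for Lhx1, an organizer and head factor. Lhx1 (chromosome 11, minus strand, 84331479 to 84338923) had 181 and 17.4 CPM on days 3 and 4, 0.071 CPM in 2i, 0.506 CPM in 2iJ, 0.245, 0.699 and 0.326 CPM in 2iJ+B-A by day, and 0.202 CPM in the sorted cells. Evx1 (chromosome 6, plus strand, 52263492 to 52268372), a posterior streak factor, had 193 and 6.91 CPM on days 3 and 4. In stem cells Evx1 had 0.071 CPM in 2i, 0.739 CPM in 2iJ, 0.448, 3.34 and 7.19 CPM on days 2, 5 and 11 of 2iJ+B-A, and 1.26 CPM in the sorted cells. The day 11 stem cells and the day 4 mesoderm therefore had overlapping intervals for Evx1, 6.31 to 8.21 and 6.05 to 7.90 CPM. A noncoding gene overlaps Evx1 by 1335 bases on the other strand, and the counts used are those of the strand of Evx1. Gsc (goosecoid, of the anterior streak and organizer, chromosome 12, minus strand, 105709419 to 105711537) had the lowest peak, 9.95 CPM on day 3, and only 0.194 CPM (6 counts) on day 4. Gsc had 0.533 CPM in 2i, 0.311 CPM in 2iJ, 1.63, 2.23 and 2.02 CPM in 2iJ+B-A by day, and 1.72 CPM in the sorted cells. It was the 1 tested member whose day 4 mesoderm level lay below all stem cell libraries, although its interval (0.089 to 0.423 CPM) overlapped those of 2i and 2iJ.

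The remaining members belong to the bHLH family. Mesp1, which marks the first mesoderm and the precursors of the heart, had 181 and 6.36 CPM on days 3 and 4. It was scarcely detected in stem cells, with 2 counts in 2i, 1 count in 2iJ, 3, 9 and 0 counts in 2iJ+B-A by day and 1 count in the sorted cells. Its neighbour Mesp2, which acts in somite boundary formation, had 35.6 and 1.74 CPM on days 3 and 4, 1.07 CPM in 2i, 0.662 CPM in 2iJ, 0.978, 0.858 and 0.521 CPM in 2iJ+B-A by day, and 0.404 CPM in the sorted cells. In the annotation of the files (NCBIM37) the genes stand head to head on chromosome 7, Mesp1 on the minus strand at 86937127 to 86938674 and Mesp2 on the plus strand at 86955613 to 86958317, with 16938 bases between them. These paralogs share a bHLH domain, and the longest run common to their transcripts is shown as their closest match at the level of the RNA.
Mesp1 and Mesp2 shared run: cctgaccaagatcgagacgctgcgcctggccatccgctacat
This run has 42 bases, shorter than the reads of 126 bases. Msgn1 (chromosome 12, minus strand, 11215188 to 11215754), a presomitic mesoderm factor downstream of Wnt, had 425 counts on day 3 (13.5 CPM) and 1 count on day 4. Elsewhere it had 8 counts in 2i, 8 in 2iJ, 0, 4 and 1 in 2iJ+B-A by day and 0 in the sorted cells, where 0 counts allow up to 0.151 CPM by the floor of 3 counts and up to 0.194 CPM by the Wilson interval. Msgn1 was therefore detected above the floor in 2i, in 2iJ and on day 5 of 2iJ+B-A, but at a small part of its day 3 level.

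To ask which factors distinguish mesoderm progenitors from treated mESCs, both mesoderm days were compared with the 3 libraries of 2iJ+B-A. Of the 9 tested members, 7 were higher in mesoderm by edgeR's quasi-likelihood test with Benjamini-Hochberg adjustment (adjusted p under 0.05), and 11.5% of all 16961 tested genes were called higher. The members' median log2 fold change was 5.85, beside -0.03 over all genes tested. T, Mesp1, Lhx1 and Mixl1 were known from earlier results to be among the largest rises of this contrast, so their part in the count is not independent. T rose by 9.34 on the log2 scale (SE 1.80, edgeR adjusted p = 0.0144) and Lhx1 by 7.84 (SE 1.09, edgeR adjusted p = 0.0058). Mesp1 rose by 9.37 (SE 1.65, edgeR adjusted p = 0.0109), Mixl1 by 7.58, Eomes by 5.85, Tbx6 by 5.62 and Mesp2 by 4.57. Evx1 had a log2 fold change of 4.77 (SE 1.45, edgeR adjusted p = 0.0538) and Gsc one of 1.37 (SE 1.20, edgeR adjusted p = 0.433), and neither passed. The fold changes average a day of high and a day of low expression, and only 2 members (Lhx1 and Mesp1) remained past the threshold without day 2 or without day 5 of 2iJ+B-A, and 4 without day 11. Without day 3 of mesoderm, Mesp1 no longer passed the filter, 3 members remained higher (Lhx1, T and Eomes) and Gsc was called lower, at -3.23 on the log2 scale (edgeR adjusted p = 0.0232). Across libraries, 7 members were higher in both mesoderm libraries than in all 5 unsorted mESC libraries, a pattern that 22.9% of tested genes showed. Gsc and Evx1 did not show it, nor did the untested Msgn1.

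Because the factors differed so much by day, each mesoderm day was next set against the same 3 libraries of 2iJ+B-A. The spread then came from 2iJ+B-A alone (2 residual degrees of freedom), and a single mesoderm library was assumed to vary as these did. On day 3 all 9 tested members were higher, where 8.27% of all tested genes were called higher. Their median log2 fold change was 6.77 beside -0.07 over all genes. This count is not independent for T, Mesp1, Lhx1 and Mixl1, which were known beforehand to be among the largest rises in mesoderm. Mesp1 also passed the filter only through the mesoderm libraries. T rose by 10.32 (SE 0.40, edgeR adjusted p = 0.000807), Mesp1 by 10.32 (SE 0.73, edgeR adjusted p = 0.00188) and Lhx1 by 8.70 (SE 0.45, edgeR adjusted p = 0.00105). Mixl1 rose by 8.56, Eomes by 6.77, Tbx6 by 6.56, Evx1 by 5.71 and Mesp2 by 5.50. Gsc had the smallest rise, 2.34 (SE 0.45, edgeR adjusted p = 0.0209), and its adjusted p was 0.0776 without day 5 of 2iJ+B-A.

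On day 4, 6 of the 9 members were still higher than in 2iJ+B-A and 1 was lower, where 12.4% of tested genes were called higher and 14.7% lower. The median log2 fold change of the members was 1.98, beside -0.07 over all genes. As on day 3, the count is not independent for T, Mesp1, Lhx1 and Mixl1. Mesp1 (5.51, SE 0.72, edgeR adjusted p = 0.00549) and Lhx1 (5.35, SE 0.43, edgeR adjusted p = 0.00189) had the largest differences. T was higher by 3.90, Eomes by 2.66, Mixl1 by 1.98 and Tbx6 by 1.90 on the log2 scale. Gsc was lower, at -3.28 on that scale (SE 0.67, edgeR adjusted p = 0.0188). Gsc is thus a member that stood above 2iJ+B-A on day 3 and below it on day 4, although the lower call was lost without day 5 of 2iJ+B-A (edgeR adjusted p = 0.0683). Mesp2 (1.18, edgeR adjusted p = 0.128) and Evx1 (0.93, edgeR adjusted p = 0.544) did not pass. For Eomes and Gsc the call depended on the reference. Against all 5 unsorted mESC libraries, Eomes had a log2 fold change of 1.35 (SE 0.95, edgeR adjusted p = 0.322) and Gsc one of -2.75 (SE 1.27, edgeR adjusted p = 0.151).

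**Figure D2:**
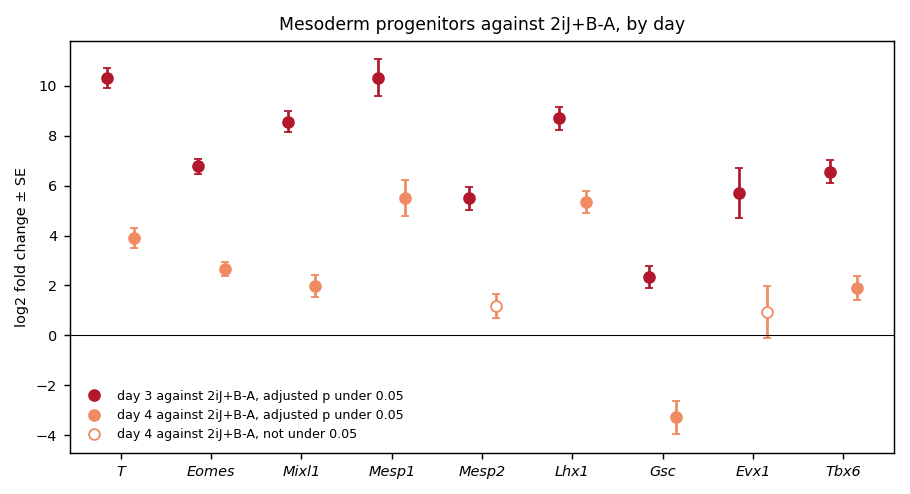
Log2 fold change (vertical axis, with SE bars) of the 9 tested factors in mesoderm progenitors on day 3 (dark red) and day 4 (orange) against the 3 libraries of 2iJ+B-A. Filled points passed the threshold on the edgeR adjusted p. All 9 factors lie above 0 on day 3, from 2.34 for Gsc to 10.32 for T, and Gsc alone lies below 0 on day 4.

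The step from day 3 to day 4 was then examined directly, with 1 library on each side. All 10 factors had a lower CPM on day 4. The ratio of day 3 to day 4 was 97.8 for Mixl1, 86.9 for T, 51.3 for Gsc, 28.5 for Mesp1, 28.0 for Evx1, 26.0 for Tbx6, 20.4 for Mesp2, 17.7 for Eomes and 10.4 for Lhx1. Of the 9 tested members, 3 fell by the edgeR test, where 0.13% of all tested genes (22 of 16961) were called lower. T fell by 6.41 on the log2 scale (SE 0.53, edgeR adjusted p = 0.0293), Mixl1 fell by 6.58 (SE 0.63, edgeR adjusted p = 0.0418) and Eomes fell by 4.12 (SE 0.41, edgeR adjusted p = 0.0418). The other 6 had log2 fold changes between -3.35 and -5.62 and adjusted p between 0.0673 for Gsc and Tbx6 and 0.256 for Evx1, again by edgeR. All 9 had an unadjusted p under 0.05, and the members' median was -4.78 beside 0.0029 over all genes. As above, the count is not independent for T, Mesp1, Lhx1 and Mixl1, known beforehand to be among the largest rises in mesoderm. Mesp1 also passed the filter only through these 2 libraries. The count differed between settings as well. DESeq2 called 8 members lower (all but Evx1) where it called 2.48% of genes lower, and edgeR without a filter on low counts called 9 of 10 where it called 0.826% lower. Without day 2 or without day 11 of 2iJ+B-A all 9 were called, and without day 5 only T and Mixl1. Beside these values, Pou5f1 (Oct4) and Nanog fell by 4.28 and 3.95 on the log2 scale. The other pluripotency markers moved less, from -1.42 for Tfcp2l1 to 0.88 for Klf4, and the median of the 7 was -0.64. The summed mesoderm markers went from 374 to 1125 CPM, but the 5 genes differed. Hand1 and Kdr had log2 fold changes of 3.71 and 2.20, Pdgfra and Foxf1 of 0.75 and 0.56, and Snai1 of -2.29. The part of either marker list in the factors' values was not tested, and time and IWP-2 cannot be told apart.

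The signals that act on the streak were described with a list of 19 genes of the Nodal, Wnt, FGF and BMP pathways, of which 18 were tested. With both days as 1 group against 2iJ+B-A, 7 were higher and 1 lower, with a median log2 fold change of 2.33. In that fit 11.5% of all tested genes were called higher and 15.5% lower. Fgf8, an FGF ligand of the streak needed for cells to leave it, was higher by 7.39 (edgeR adjusted p = 0.00638). The Wnt target Sp5 was higher by 6.95, the ligand Wnt3, which the streak requires, by 5.89 and the ligand Fgf17 by 4.96. The lower gene was Fgf4, an FGF ligand of pluripotent cells, at -3.91 on the log2 scale (edgeR adjusted p = 0.0177). On day 3, 11 signal genes were higher and 1 lower, where 8.27% of all tested genes were called higher and 11.1% lower. On day 4, 7 were higher and 3 lower, where 12.4% and 14.7% of all tested genes were. From day 3 to day 4, 15 of the 18 had a negative log2 fold change (83.3%, beside 47.4% of all genes tested), with a median of -2.46. Sp5 alone was called, and it fell by 7.05 on the log2 scale (SE 0.57, edgeR adjusted p = 0.0293), from 162 to 1.20 CPM. Further signal genes, chosen after their values were seen, show the range: Wnt3a had 16.3 and 0.097 CPM on days 3 and 4, Wnt8a 47.7 and 0.549 CPM, and Wnt3 107 and 25.0 CPM. Nodal had 44.0 and 1.65 CPM, whereas Bmp4 was the other way round, with 7.03 and 161 CPM. None of these 5 was called between the days.

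Genes of mesoderm that has left the streak were described with a list of 24, of which 22 were tested. With both days as 1 group against 2iJ+B-A, 9 were higher and 1 lower, with a median log2 fold change of 3.23. In that fit 11.5% of all tested genes were called higher and 15.5% lower. Kdr, a receptor of vascular and cardiac precursors, was higher by 5.11 (edgeR adjusted p = 0.00634), Foxc1 by 4.71 and the Notch ligand Dll3 by 4.49. Cdx4, a posterior homeobox gene, was lower (-4.50, edgeR adjusted p = 0.0253). On day 3, 8 of the list were higher and none lower, where 8.27% of all tested genes were called higher and 11.1% lower. On day 4, 13 were higher and 2 lower, where 12.4% and 14.7% of all tested genes were. None of the 22 was called between the days by edgeR, and 9 of them (40.9%, beside 47.4% of all genes tested) had a negative log2 fold change, with a median of 0.76. The largest differences were those of Cdx1 (-7.76, edgeR adjusted p = 0.0706) and of Hand2, a heart and limb factor (7.34, edgeR adjusted p = 0.237). Hand2 had 2.54 and 406 CPM on these days. The 5 mesoderm markers belong to this list. A list of 7 endoderm and axial genes (Sox17, Foxa1, Foxa2, Hhex, Cxcr4, Noto and Shh) had 5 tested, of which 4 lay below 0 in mesoderm against 2iJ+B-A, with a median log2 fold change of -2.17. Foxa1 had -2.79, Sox17 -2.26, Foxa2 -2.17 and Hhex -0.38 on that scale, and none of these passed. Cxcr4, a chemokine receptor of mesoderm and endoderm, was higher by 3.20 (edgeR adjusted p = 0.00934). None of the 5 was called between the days. Foxa1 and Foxa2 had log2 fold changes of -6.28 (edgeR adjusted p = 0.187) and -4.64 (edgeR adjusted p = 0.508) from day 3 to day 4, with at most 1.75 CPM on either day.

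**Figure D3:**
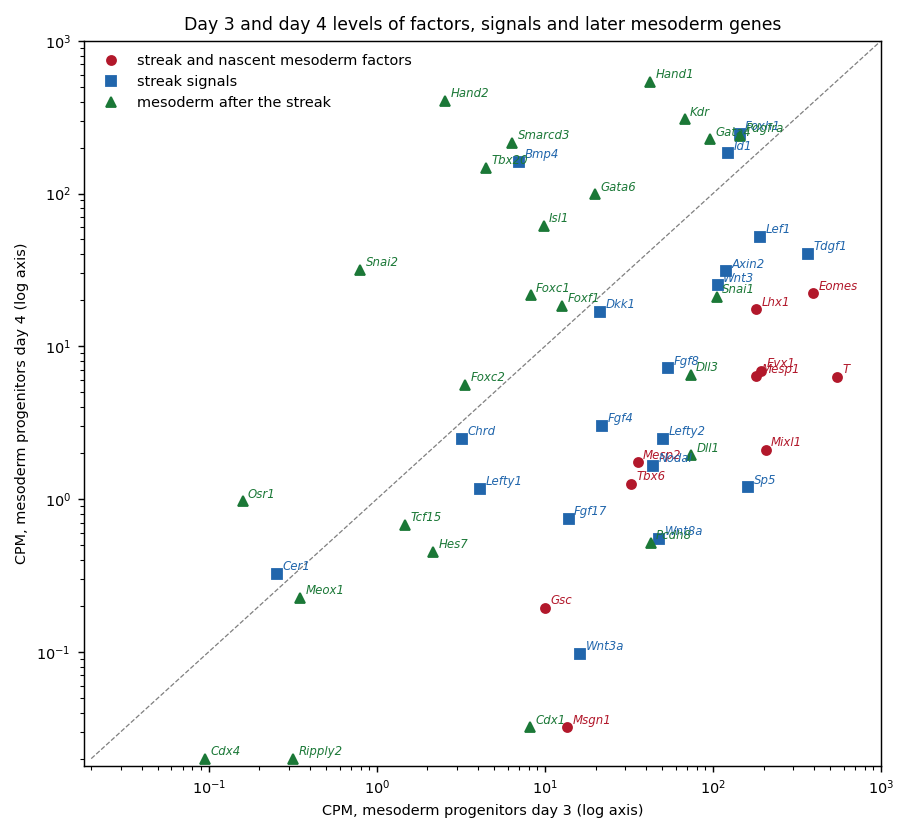
CPM on day 3 (horizontal) and day 4 (vertical) of mesoderm, both on log axes, for the 10 factors (red circles), 19 streak signals (blue squares) and 24 later mesoderm genes (green triangles). The dashed line marks equal levels, and genes with 0 counts on day 4 are drawn near the lower edge. All 10 factors lie below the line, and Hand2 lies above it with 2.54 and 406 CPM.

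Within the stem cells, the question was whether BMP4 and ALK5 inhibition on top of 2iJ altered these factors. Against the single 2iJ library no member passed the edgeR test, and 0% of the 16961 genes did. At an unadjusted p under 0.05 there were 1290 genes and 0 members, and DESeq2 called 309 genes and 0 members. With only these 2 groups in the fit, or without the mesoderm progenitors, 3 of 8 members (Eomes, Gsc and T) had an unadjusted p under 0.05. So did 1667 of 15950 genes in the former fit and 1792 of 16459 in the latter. No member passed after adjustment. By edgeR, the log2 fold change was -1.94 for Eomes (SE 1.16, adjusted p = 0.795), -1.74 for T (adjusted p = 0.921), 2.57 for Gsc (adjusted p = 0.842) and 2.24 for Evx1 (adjusted p = 0.891). In levels, 3 of the tested members did not overlap between the 3 libraries of 2iJ+B-A and the pair of 2i and 2iJ. The same held for 43.5% of all tested genes, so the tested members did not stand out by this measure. Eomes (2.57 to 4.16 CPM against 13.2 and 19.0) and T (0.228 to 0.668 CPM against 1.31 and 1.36) were lower in 2iJ+B-A, and Gsc (1.63 to 2.23 CPM against 0.311 and 0.533) was higher. The untested Msgn1 did not overlap either (0 to 0.127 CPM against 0.284 and 0.311), with at most 8 counts in any of these libraries. A fit of the 5 unsorted mESC libraries alone with 2i and 2iJ pooled, chosen after seeing the data, had 8 members to test and called 2 of them, where it called 5.12% of 16235 genes. Eomes fell by 2.25 in that fit (SE 0.31, edgeR adjusted p = 0.0172) and Gsc rose by 2.11 (SE 0.45, edgeR adjusted p = 0.0454), while T had -1.74 (adjusted p = 0.0975) and Evx1 had 3.11 (adjusted p = 0.183). JAK inhibition is the only labelled difference between 2i and 2iJ, which were compared by level alone, with 1 library each and no test. Eomes had 19.0 CPM (17.4 to 20.6) in 2i and 13.2 CPM (11.9 to 14.7) in 2iJ. Evx1 had 0.071 CPM (0.019 to 0.259) and 0.739 CPM (0.473 to 1.16), and Lhx1 had 0.071 CPM (0.019 to 0.259) and 0.506 CPM (0.296 to 0.866). These pairs of intervals were separate, but Evx1 and Lhx1 had 2 counts each in 2i, below the floor of 3 counts. The share of all genes with separate intervals was not counted. T had overlapping intervals, 0.954 to 1.81 and 0.979 to 1.89 CPM.

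Evx1 differed by day within 2iJ+B-A, with 11 counts on day 2, 105 on day 5 and 221 on day 11. With 1 library a day this was not tested. Endoderm markers (Sox17, Foxa2, Cer1 and Cxcr4) moved in the same order, with 3.18, 11.9 and 36.5 CPM in sum. Sox17 had 24.1 CPM on day 11. Epiblast (125, 176 and 295 CPM), neural (6.28, 8.81 and 14.3 CPM) and pluripotency markers (3110, 3181 and 3619 CPM) took that order too. Mesoderm markers did not, with 50.4, 135 and 73.0 CPM, nor did trophoblast markers, with 168, 253 and 116 CPM. The part of any of these cell types in the values of Evx1 was not tested. Among the pathway genes, chosen after their values were seen, the Nodal targets Lefty1 and Lefty2 had 141 and 400 CPM in 2i and 189 and 316 CPM in 2iJ. On days 2, 5 and 11 of 2iJ+B-A, Lefty1 had 8.36, 3.31 and 0.195 CPM and Lefty2 had 13.1, 4.26 and 0.065 CPM. Nodal itself had 45.4, 75.6 and 123 CPM in 2iJ+B-A by day, beside 77.7 CPM in 2i and 105 CPM in 2iJ, and the BMP target Id1 had 103 to 132 CPM beside 5.12 and 11.8 CPM. The edgeR fit of 2iJ+B-A against the single 2iJ library called no gene of any kind, so it cannot show whether the 18 streak signals changed. In that fit Lefty1, Lefty2 and Id1 had log2 fold changes of -5.6, -5.8 and 3.2, and the median of the 18 was -0.72.

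**Figure D4:**
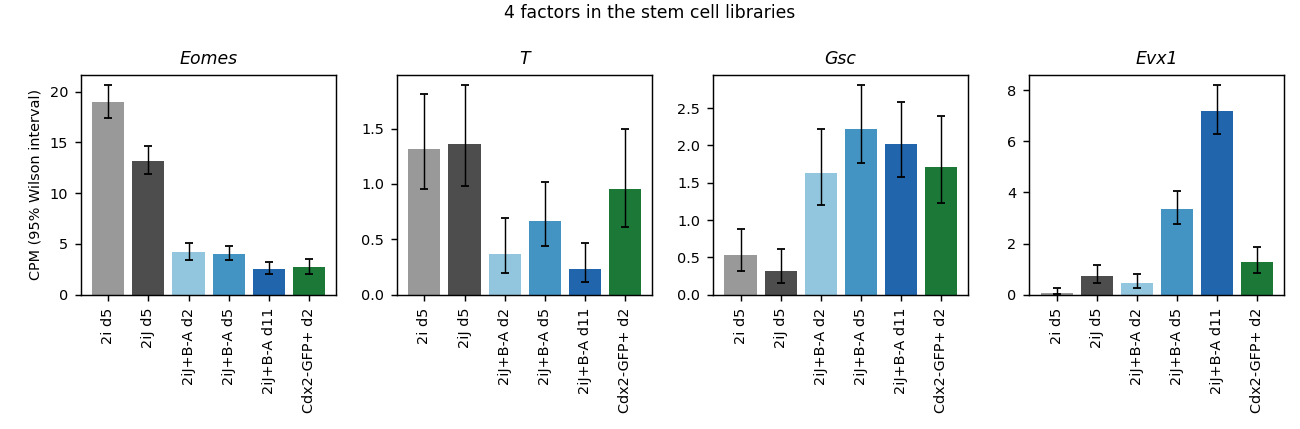
CPM of Eomes, T, Gsc and Evx1 (bars, linear axes that start at 0 and differ in scale) in the 6 stem cell libraries, with 95% Wilson intervals for counting error. Eomes and T are lower and Gsc is higher in all 3 libraries of 2iJ+B-A than in 2i and 2iJ, and Evx1 is highest on day 11 with 7.19 CPM.

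The sorted Cdx2-GFP+ cells showed little of the streak set. No member was called against 2iJ+B-A, where 5.42% of tested genes were called. The members at an unadjusted p under 0.05 numbered 0, and DESeq2 called 0. Tbx6 came nearest, with 1.92 CPM against 0.245 to 0.413 CPM and a fold change of 2.53 on the log2 scale (SE 1.38, edgeR adjusted p = 0.286). Without the mesoderm progenitors in the fit the same fold change passed (edgeR adjusted p = 0.0447), the 1 call among 8 members. That fit called 6.84% of 16459 genes higher and 5.51% lower, and 5375 genes had an unadjusted p under 0.05. Of the 8 members, 2 had such a p, Tbx6 and Mixl1, so the members did not stand out from other genes. Mixl1 had a log2 fold change of -3.24 (SE 1.22, edgeR adjusted p = 0.128). Mixl1 and Mesp1 had 1 count each and Msgn1 had 0. Trophoblast markers (Cdx2, Elf5, Gata3, Tfap2c and Krt7) summed to 596 CPM in this library and to 116 to 253 CPM in 2iJ+B-A. This sum includes Cdx2, on which the cells were sorted, so a higher value was built into the sort. Cdx2 alone of the 5 was called, with a log2 fold change of 3.54. The median of the 5 was 1.35, and 0 of them lay below 0. Line, sorting, day (2 against 2, 5 and 11) and the share of unmapped pairs cannot be told apart here.

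The genes whose pattern was most like that of the set were sought by Pearson's r between their log2 CPM and the mean standardized profile of the 9 tested members over the 8 libraries, among 11035 genes that reached 10 CPM. This is a description, and the r values are governed by the single high library of day 3. The closest were Alox15, a lipoxygenase (r = 0.993), 1110067D22Rik (r = 0.988), the FGF ligand Fgf3 (r = 0.978), Cxx1c (r = 0.970) and Lfng, a modifier of Notch signalling (r = 0.967). Alox15 had 234 CPM on day 3, 5.27 CPM on day 4 and 0.391 to 0.668 CPM in stem cells. 1110067D22Rik differed in scale, with 92.6 CPM on day 3 and 41.0 to 49.4 CPM elsewhere. The members themselves had r between 0.573 for Gsc and 0.970 for Mesp2, so Gsc followed the set least.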

How the data were processed

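Poly-A RNA from 8 libraries was sequenced strand-specifically as read pairs. The submitters' processing notes name bcl2fastq 2.17, cutadapt and STAR 2.4.2a, with the build NCBIM37. The authors deposited raw counts of read pairs per gene, unstranded and by strand. Reverse-strand counts were used, as the library chemistry requires. GENCODE vM1 named 37205 of 37620 genes, and Sox1 was not matched. No row without a gene entered library sizes.

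CPM are shares of gene counts with 95% Wilson intervals, which, like the floor of 3 counts, cover counting error only. RPKM used union exon length. The 16961 genes that reached 10 counts in 2 or more libraries were fitted with edgeR 4.0.16 (R 4.3.3, TMM scaling) over 5 groups (3 residual degrees of freedom), or over 6 with the mesoderm days apart, and tested by quasi-likelihood with Benjamini-Hochberg adjustment over all genes. SE was obtained from the log2 fold change and the F statistic (their quotient after taking the root of F). The method was tested on simulated data with less spread between libraries than these data and with changes only in well-counted genes. That test does not cover days used as samples or members with few counts. DESeq2 1.42.0, RLE scaling, no filter, unstranded counts, other references and left-out libraries were alternatives.

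Members and lists were chosen with earlier results of these data known. Members are named throughout. From each list, up to 4 called genes with the largest fold change, or else the 2 largest not called, are named for mesoderm against 2iJ+B-A and for day 4 against day 3. Marker lists are given by their summed level. Pou3f1 overlaps another gene model, so its counts are uncertain. Epiblast markers (Fgf5, Otx2, Pou3f1 and Dnmt3b) summed to 469 and 466 CPM in mesoderm on days 3 and 4 and 125 to 295 CPM in unsorted mESCs. The similar sums on these days hide differences between genes. From day 3 to day 4, Fgf5 and Otx2 had log2 fold changes of -5.34 and -2.53, and Dnmt3b had 0.28. Neural markers (Pax6, Olig3 and Neurog2) summed to at most 14.3 CPM in any library.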

Additional observations from a re-analysis of the deposited data

Results flagged for a closer look

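Lhx1 had 20 read pairs on the strand opposite to the gene in the sorted Cdx2-GFP+ library, beside 4 pairs on its own strand. It was flagged because these pairs lie outside the strand used for the comparisons and exceed the level in the unsorted mESC libraries, where at most 1 such pair was counted. With unstranded counts the log2 fold change of Lhx1 in sorted cells against 2iJ+B-A was 1.58, whereas it was -1.02 with reverse-strand counts (edgeR adjusted p = 0.47 and 0.754). The origin of these pairs was not tested.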

How the results depend on the processing

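No paired analysis was possible because the labels carry no replicate numbers. Of 564 alternative fold changes of members, 499 kept their direction and side of the threshold, 32 newly passed it, 24 lost it and 9 changed sign. Sign changes were Gsc in mesoderm against 2iJ+B-A without day 3 (-3.23, and 2.39 without day 4), Lhx1 in sorted cells with unstranded counts (1.58), and 3 members against 2iJ with values near 0: Lhx1 with 2i and 2iJ pooled (0.53, and 0.50 with unsorted mESCs alone), Mesp2 (-0.21 and -0.23, and from -0.019 to 0.40 with a library left out) and Tbx6 (0.018 and 0.010). Leaving out a 2iJ+B-A or mesoderm library, members called ranged from 2 to 8 in mesoderm against 2iJ+B-A, 4 to 7 on day 4, 2 to 9 from day 3 to day 4 and 0 to 1 in sorted cells (1 without mesoderm). From day 3 to day 4, DESeq2 called 8 members and 760 genes, and no filter 9 and 394. With the same libraries left out, genes called ranged from 21 to 487 there, 1520 to 4671 on day 3, 2569 to 6032 on day 4, 2019 to 4538 in both days and 37 to 2052 in sorted cells. In sorted cells DESeq2 called 2665 genes, no filter 1390 and the fit without mesoderm 2033, beside 919. Against 2iJ, pooling called 150 genes, unsorted mESCs alone 832 with 2 members, and DESeq2 309. The causes were not tested. Summed member levels moved by less than the spread of their group, or the counting interval of a lone library, under other scaling and strand choices. For mesoderm progenitors that spread comes from 1793 and 64.5 CPM, so it is too wide to reveal such a move. Groups of 1 library and days used as replicates limit every test, and 3 counts correspond to 0.095 to 0.151 CPM.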

Other observations

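Genes next to the factors, within 3000 bases and chosen after seeing the data, differed in whether their levels moved with them. The noncoding gene 5730457N03Rik overlaps Evx1 by 1335 bases on the opposite strand. It had 81.1 and 4.07 CPM on days 3 and 4 of mesoderm, 0.107 CPM in 2i, 0.195 CPM in 2iJ, 0.163, 1.14 and 1.76 CPM on days 2, 5 and 11 of 2iJ+B-A, and 0.303 CPM in the sorted cells. Its order across these libraries followed that of Evx1 on the 2 mesoderm days and across the days of 2iJ+B-A. On day 3, 2.44% of the strand-assigned pairs of Evx1 lay on the opposite strand. The noncoding gene 1500016L03Rik starts 238 bases from Lhx1 and is transcribed away from it. It had 4.36 and 1.62 CPM on days 3 and 4 and at most 0.064 CPM in stem cells, where Lhx1 was also lowest. Ppp4c, 346 bases from Tbx6, had 160 to 217 CPM in all 8 libraries, and Lin9, 2357 bases from Mixl1, had 19.3 to 33.5 CPM. Ypel3, 968 bases from Tbx6, had 46.9 CPM on day 3, 28.3 CPM on day 4, 30.6 CPM in the sorted cells and 9.84 to 16.6 CPM in the unsorted mESCs.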
